A study of Homo sapiens with 6 samples.

Results

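The genes described here are 10 members of the serpin family, chosen around SERPINI1, whose value fell more than that of nearly every other gene in this experiment. A gene was measured by the probe sets that carry its symbol alone in the platform annotation, and 9 of the 10 genes had such probe sets, 28 in all, among 18132 genes and 49395 probe sets on the array. SERPINB6 had no matching probe set and was not analysed here. Since the set was drawn up from the same 6 arrays, the values of its genes are a description and carry no test.

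The sample titles name TPC-1, an established line of human papillary thyroid carcinoma, as the source of the RNA, whereas the extraction protocol names DLD1, as described below. The cells were infected with a lentivirus that expressed either a control shRNA (3 samples) or an shRNA named for FAM60A (3 samples). Each sample was hybridised to 1 Affymetrix array. FAM60A is now called SINHCAF and codes for a protein of the SIN3 histone deacetylase complex. All 6 samples carried a lentivirus and an shRNA, and the labels give no time after infection and no clone or selection. The samples are described as independent within a group, but nothing states separate infections, so the p-values below measure the spread between these samples, and 3 arrays a group limit the precision.

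The direction of the labels needs care. SINHCAF stood at -0.64 ± 0.0501 (SD, n = 3) on the arrays labelled control shRNA and at 0.60 ± 0.0321 on those labelled FAM60A shRNA, in log2 units relative to the median of the 6 arrays, so the targeted gene was higher where the labels name its shRNA (two-sided exact permutation test, p = 0.1, the smallest that 3 against 3 arrays allow). Every difference below is therefore that of the arrays labelled FAM60A shRNA minus the arrays labelled control shRNA, with the labels as given. Whether the labels of the groups were exchanged was not tested; if they were, every sign below would turn, and the 11th largest fall reported for SERPINI1 would be the 11th largest rise. The extraction protocol names DLD1, a colorectal carcinoma line, in place of TPC-1. The counts of markers that follow stand beside 19.8% of all genes higher and 25% lower. Of 10 intestinal marker genes 6 were higher and 1 lower. CDX2, CDH17 and KRT20 had probe sets in the highest level class described below, while all probe sets of ISX, LGALS4 and VIL1 lay in the lowest. Of 10 thyroid markers 9 were measured, with 0 higher and 1 lower. DIO1 had a probe set in the highest class, all probe sets of TSHR and DIO2 lay in the lowest, and HHEX fell by 0.97 (limma, adjusted p = 6.75e-05). All probe sets of the fibroblast genes COL1A2, COL3A1, DCN and LUM and of the leukocyte genes CD14, HLA-DRA and LYZ lay in the lowest class too. The leukocyte gene CD68 had a probe set in the highest class and rose by 0.26 (adjusted p = 0.002), and of 6 neuronal markers 2 were higher. As a sign of RNA quality, the 3' minus 5' value of the control probe sets differed between the groups by -0.012 for GAPDH and -0.029 for ACTB (two-sided exact permutation tests, p = 0.4 and 0.3). The part of cell identity in the differences was not tested, and in RNA from whole cultures fewer cells of a kind and less RNA per cell cannot be told apart.

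Serpins share a fold with an exposed reactive loop. A target protease cuts the loop as if it were a substrate, and the serpin then springs into a more stable form that traps the protease in a covalent complex, so that each inhibitor molecule works a single time. Clade A serpins such as SERPINA1 are secreted, mostly by the liver, and guard tissue against leukocyte proteases, clade B serpins stay inside the cell and protect it from its own or incoming proteases, and a few members, among them SERPINB5 and SERPINH1, have lost inhibition and do other work.

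The deposited table holds each probe set centred on its median over the 6 arrays, so it gives differences between arrays and no expression level. The rounding left in the values still gave a coarse level class, which was worked out from them. It estimated whether the lowest original log2 value used lay from 2 to 4, from 4 to 8, or at 8 or more. The coarsest rounding step that fitted was taken, so the class of a single probe set can be too high by chance. The highest class includes 891 probe sets whose step fitted values of 16 or more. Of 17 control tags on the array 16 lay in the lowest class, and no error rate was worked out. Only values within 1 log2 unit of the probe set median were used, and at least 4 of them, so an array further below the median is not covered. Over all probe sets with 1 symbol, 11.3% of the lowest, 45.4% of the middle and 64.3% of the highest class differed between the groups at an adjusted p under 0.05 (limma, Benjamini-Hochberg).

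At the level of genes, 5 serpins were higher, 2 were lower and 2 did not pass the threshold, beside 44.9% of all genes called in either direction, 19.8% higher and 25% lower. The set was chosen from this contrast, so the count is given without a reading. The median difference of the 9 genes was 0.25 and their median absolute difference 0.32, against -0.012 and 0.12 over all genes. The groups did not overlap for 7 of the 9 genes, and for 53.2% of all genes.

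**Figure D1:**
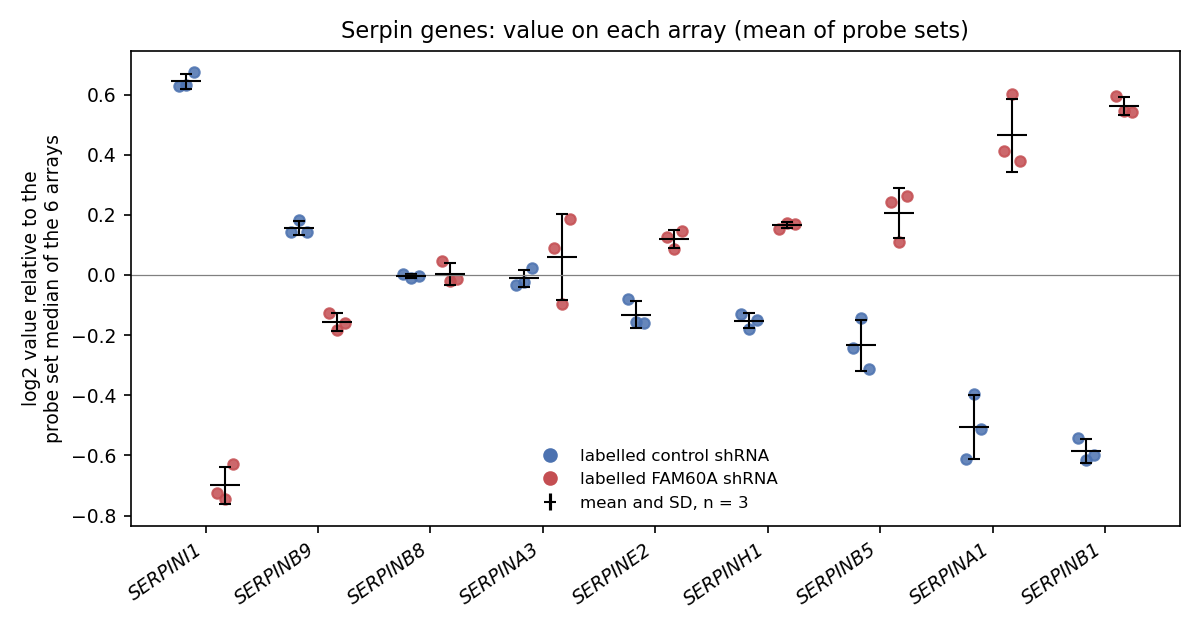
Log2 value of each serpin gene on each array, relative to the median of the 6 arrays (vertical axis), with genes ordered by their difference; dots are arrays, and bars give mean and SD of 3. SERPINI1 and SERPINB9 lie lower on the arrays labelled FAM60A shRNA, SERPINE2, SERPINH1, SERPINB5, SERPINA1 and SERPINB1 lie higher, and the groups of SERPINB8 and SERPINA3 overlap.

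The first pair inhibits plasminogen activators and thrombin. SERPINI1, or neuroserpin, is secreted mainly by neurons and inhibits the tissue plasminogen activator. Its start on chromosome 3 lies 829 bases from the nearer start of PDCD10, a gene read in the opposite direction that codes for a small adaptor protein of cell junctions. The 250 bases before both starts (RefSeq, GRCh38.p14) are shown because the genes face each other and SERPINI1 alone of the pair was among the large falls. They are given in the direction of each gene, chr3:167735471-167735720 on the plus strand for SERPINI1, with E-boxes (CAGCTG, its own reverse complement) in capitals, and chr3:167734893-167735142 on the minus strand for PDCD10, with a CCAAT box (read as ATTGG) in capitals.
SERPINI1: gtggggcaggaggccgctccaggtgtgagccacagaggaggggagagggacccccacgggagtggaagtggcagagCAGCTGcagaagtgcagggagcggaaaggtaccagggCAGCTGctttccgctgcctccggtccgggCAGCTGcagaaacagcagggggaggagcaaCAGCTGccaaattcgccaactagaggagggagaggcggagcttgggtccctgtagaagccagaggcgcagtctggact
PDCD10: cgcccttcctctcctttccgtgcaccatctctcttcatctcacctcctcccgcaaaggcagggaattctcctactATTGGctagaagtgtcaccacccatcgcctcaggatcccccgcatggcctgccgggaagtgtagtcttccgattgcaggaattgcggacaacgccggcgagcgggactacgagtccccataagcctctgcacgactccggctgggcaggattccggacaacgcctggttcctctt
The SERPINI1 window holds 4 E-boxes, which begin 174, 137, 108 and 78 bases before the start. Of 34788 distinct promoter windows of this length, 14% hold at least 1 such match and 0.0172% hold 4 or more; the motif was picked with this sequence in view, and a match is a string of letters, not a shown binding site. A window of SERPINE2, which was higher, holds 2 E-boxes, which begin 153 and 78 bases before its start. The CCAAT box, CCAAT on either strand, occurs in 32% of windows.

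SERPINI1 was read by 1 probe set of the middle level class. On the arrays labelled control shRNA its log2 values were 0.63, 0.63 and 0.67, and on those labelled FAM60A shRNA they were -0.73, -0.74 and -0.63. All 3 of the latter lay far below all 3 of the former. The difference was -1.34 (SE 0.040, 95% confidence interval -1.44 to -1.25), or 2.54-fold lower. This was the 11th largest fall of 18132 genes, between IER3IP1 at -1.36 and MNX1 at -1.31, and it belongs to the 53 genes, 0.292% of all, that were called and at least 2-fold lower.

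PDCD10 did not follow it past the threshold. Its log2 values were 0.23, 0.043 and -0.000 on the arrays labelled control shRNA and 0.059, -0.037 and -0.090 on those labelled FAM60A shRNA, so the groups overlapped. The difference of the gene was -0.12 (SE 0.069, limma, adjusted p = 0.234), while 1 of its 3 probe sets, in the highest level class, was lower by itself (-0.22, adjusted p = 0.00532 over all probe sets). GOLIM4, the measured gene on the other side of SERPINI1, stood at -0.16 (adjusted p = 0.101), and at -0.19 and past the threshold without probe sets of the lowest class.

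SERPINE2, protease nexin 1, sits on cell-surface heparan sulphate and inhibits thrombin and the plasminogen activators. Its values were -0.079, -0.16 and -0.16 on the arrays labelled control shRNA and 0.13, 0.087 and 0.15 on those labelled FAM60A shRNA. The groups did not overlap, and the difference was 0.25 (SE 0.037, interval 0.17 to 0.34), which is 1.19-fold higher. Of its 6 probe sets 5 were higher, by up to 0.36, and the sixth was at 0.001, in contrast to the large fall of the other plasminogen activator inhibitor of the set.

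The next group inhibits proteases of neutrophil granules. SERPINA1, alpha-1-antitrypsin, is the main plasma inhibitor of neutrophil elastase. Its values were -0.61, -0.40 and -0.51 on the arrays labelled control shRNA and 0.41, 0.60 and 0.38 on those labelled FAM60A shRNA. Every array of the second group lay above every array of the first, and the mean difference was 0.97 (SE 0.076, interval 0.79 to 1.15), or 1.96-fold higher.

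The 4 probe sets of SERPINA1 did not move as one. Differences of 1.84, 1.23 and 1.06 came from 3 probe sets of the middle and highest classes. The fourth, in the lowest class, gave -0.25, with values of -0.037, 0.20 and 0.26 against -0.15, 0.037 and -0.22, so its groups overlapped. Without probe sets of the lowest class the difference of the gene was 1.38, and with the probe set of largest variance alone it was 1.84. RefSeq lists 2 starts for SERPINA1, 2033 bases apart, and which transcripts each probe set reads was not examined.

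SERPINA3, antichymotrypsin, inhibits cathepsin G and mast cell chymase and, like SERPINA1, is an acute phase protein. Its values were -0.033, -0.022 and 0.022 on the arrays labelled control shRNA and 0.090, -0.096 and 0.18 on those labelled FAM60A shRNA. The groups overlapped, and both probe sets lay in the lowest level class. The difference was 0.070 (SE 0.069, interval -0.094 to 0.23), and without the second array labelled FAM60A shRNA it was 0.15 and past the threshold.

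SERPINB1 is the intracellular counterpart, an inhibitor of neutrophil elastase, cathepsin G and proteinase 3 that shields cells from granule proteases leaking into the cytosol. Its single probe set, in the highest class, gave -0.54, -0.62 and -0.60 on the arrays labelled control shRNA and 0.60, 0.55 and 0.54 on those labelled FAM60A shRNA. The 3 arrays of each group lay close together and far from the other group. The difference was 1.15 (SE 0.035, interval 1.06 to 1.23), or 2.21-fold higher, and SERPINB1 is 1 of 217 genes, 1.2% of all, called and at least 2-fold higher.

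SERPINB9, the inhibitor of granzyme B that lets cytotoxic lymphocytes survive their own granules and tumour cells resist them, lies near SERPINB1 on chromosome 6 and moved the other way. Its values were 0.14, 0.18 and 0.14 on the arrays labelled control shRNA and -0.13, -0.18 and -0.16 on those labelled FAM60A shRNA. The groups did not overlap, and the difference was -0.31 (SE 0.032, interval -0.39 to -0.24), or 1.24-fold lower. Its 4 probe sets ranged from -0.60 to -0.059, 3 of them lower and the weakest not past the threshold, so the probe set of largest variance alone gave -0.60.

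Because these neighbours of 1 cluster moved in opposite directions, the 250 bases before each start are shown, SERPINB1 at chr6:2841864-2842113 and SERPINB9 at chr6:2903310-2903559, both on the minus strand of GRCh38.p14. Capitals mark GC boxes (GGGCGG on either strand), a STAT motif (TTCNNNGAA) in SERPINB1 and a TATA box (TATAAA) in SERPINB9.
SERPINB1: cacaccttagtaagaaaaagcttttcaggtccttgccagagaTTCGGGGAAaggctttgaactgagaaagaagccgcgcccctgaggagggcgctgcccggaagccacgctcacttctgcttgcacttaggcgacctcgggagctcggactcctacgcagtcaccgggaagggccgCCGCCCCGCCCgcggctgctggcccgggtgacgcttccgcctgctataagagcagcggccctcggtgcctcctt
SERPINB9: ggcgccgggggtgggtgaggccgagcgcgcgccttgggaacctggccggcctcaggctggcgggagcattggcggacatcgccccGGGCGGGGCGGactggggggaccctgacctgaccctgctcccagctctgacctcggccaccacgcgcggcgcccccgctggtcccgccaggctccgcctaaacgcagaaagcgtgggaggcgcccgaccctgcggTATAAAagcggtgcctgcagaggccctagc
Each window holds 2 overlapping GC boxes, a motif of 42.6% of windows. The STAT match TTCGGGGAA of SERPINB1, from 208 to 200 bases before the start, is of a kind found in 6.57% of windows, and the TATA box of SERPINB9, from 30 to 25 bases before the start, of one found in 10.8%. SERPINB9 also has a CCAAT box (ATTGG), not in capitals, from 183 to 179 bases before the start. The window of SERPINB8, whose mean difference was near 0, holds 1 STAT match and 2 TATA matches. These TATA matches overlap, 1 on each strand, from 142 to 135 bases before the start. SERPINB9P1, a pseudogene between SERPINB1 and SERPINB9, was at -0.21 (limma, adjusted p = 0.0318), and as a relative of SERPINB9 in sequence its value is uncertain. That call was lost, at -0.20 to -0.17, without array 2 or 3 labelled control shRNA or array 1 or 3 labelled FAM60A shRNA. NQO2, a quinone reductase and the next measured gene beyond SERPINB9, was higher by 0.48 (SE 0.035, adjusted p = 3.24e-05).

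SERPINB8, an intracellular inhibitor of the proprotein convertase furin, had a mean difference near 0. Its values were 0.002, -0.011 and -0.005 against 0.046, -0.019 and -0.014, with overlapping groups and a difference of 0.010 (SE 0.032, interval -0.066 to 0.085). The flat mean combined a lower probe set and 3 others that were slightly positive. The probe set of the highest class gave 0.060, 0.13 and 0.089 on the arrays labelled control shRNA and -0.14, -0.060 and -0.073 on those labelled FAM60A shRNA, a difference of -0.18. The other 3, of the middle class, lay from 0.039 to 0.098 and did not pass the threshold.

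The last members do not inhibit proteases. SERPINB5, maspin, is an epithelial protein studied as a tumour suppressor. Its values were -0.24, -0.14 and -0.31 on the arrays labelled control shRNA and 0.24, 0.11 and 0.26 on those labelled FAM60A shRNA. The groups did not overlap, and the difference was 0.44 (SE 0.059, interval 0.30 to 0.58), or 1.36-fold higher. Its 3 probe sets were unequal at 0.86, 0.27 and 0.19, the first and last in the lowest class, and without that class the difference of the gene was 0.27.

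SERPINH1, or HSP47, is a chaperone of the endoplasmic reticulum (ER) that binds folding procollagen and is a classic target of the heat shock factor HSF1. The 250 bases before one of its starts, chr11:75562003-75562252 on the plus strand of GRCh38.p14, are shown because they hold heat shock elements, in capitals.
SERPINH1: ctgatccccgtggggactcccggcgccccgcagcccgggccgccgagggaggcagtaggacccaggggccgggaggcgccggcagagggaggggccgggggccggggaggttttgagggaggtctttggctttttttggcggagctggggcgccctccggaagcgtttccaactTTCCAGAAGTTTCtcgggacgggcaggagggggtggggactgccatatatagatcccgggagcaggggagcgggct
The heat shock elements TTCNNGAA and GAANNTTC, which occur in 6.63% and 5.8% of windows, overlap here as TTCCAGAAGTTTC, from 76 to 64 bases before the start. A window in which both elements share their GAA in this way is found among 0.443% of windows.

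SERPINH1 values were -0.13, -0.18 and -0.15 on the arrays labelled control shRNA and 0.15, 0.17 and 0.17 on those labelled FAM60A shRNA. The groups did not overlap, and the difference was 0.32 (SE 0.030, interval 0.25 to 0.39), or 1.25-fold higher. All 3 probe sets were in the highest class and were higher, from 0.28 to 0.38. Their names end in x_at or s_at, which marks probes that can match more than one transcript, so SERPINH1 has no value without such probe sets.

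Across the 28 probe sets, 14 were higher, 5 were lower and 9 did not pass the threshold, beside 41.4% of all probe sets with 1 symbol called, 18.4% higher and 23% lower. By level class, 9 of 9 member probe sets were called in the highest class, beside 64.3% of all probe sets there, 7 of 12 in the middle, beside 45.4%, and 3 of 7 in the lowest, beside 11.3%. Without x_at and s_at probe sets 10 member probe sets were called in place of 19.

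**Figure D2:**
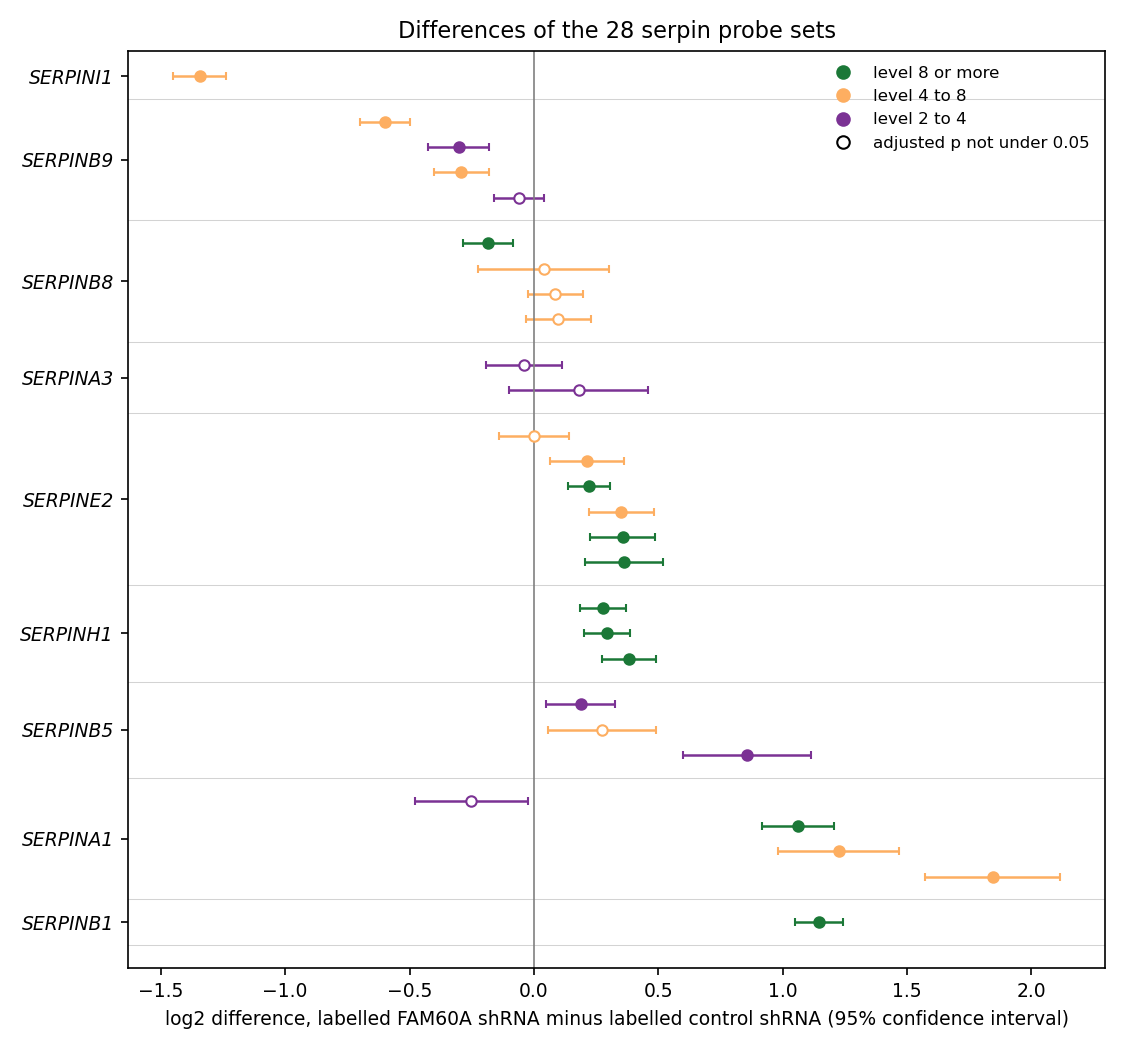
Log2 difference of each of the 28 serpin probe sets (horizontal axis, arrays labelled FAM60A shRNA minus control shRNA) with its 95% confidence interval, coloured by level class, open where the adjusted p was not under 0.05. Probe sets of SERPINA1 spread from -0.25 to 1.84 and those of SERPINB8 lie on both sides of 0, whereas the 3 of SERPINH1 lie together.

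The other serpins were mostly dim. Of 26 listed, 23 were measured, and the lowest level class held 26 of the 37 probe sets involved (70.3%), against 25.6% over all genes. Of the 23, 3 passed the threshold (13%, against 44.9% of all genes), all 3 higher, and the median difference was 0.058. Without x_at and s_at probe sets 3 passed it, 2 higher and 1 lower. SERPIND1, heparin cofactor II, a thrombin inhibitor of plasma, was highest with a difference of 0.38 (SE 0.064, limma, adjusted p = 0.00213), from -0.21, -0.22 and -0.059 to 0.27, 0.10 and 0.27. Its difference was 0.21 without the lowest level class, 0.21 without x_at and s_at probe sets and 0.55 with the probe set of largest variance.

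AGT, the serpin that gives rise to angiotensin, rose by 0.13 (adjusted p = 0.0175) and SERPINA12, vaspin, by 0.22 (adjusted p = 0.0395). Both calls were lost without the second array labelled control shRNA and without the first or the second labelled FAM60A shRNA. The call of AGT was lost without the third labelled control shRNA too, and that of SERPINA12 without the first. Without the first array labelled FAM60A shRNA 1 of the 23 was called, and without the third labelled control shRNA 4 were.

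All 37 listed target proteases of inhibitory serpins were measured. The threshold was passed by 15 (40.5%, against 44.9% of all genes), 10 higher and 5 lower, with a median of 0.049. PRSS8, prostasin, a membrane-anchored protease that activates the epithelial sodium channel, rose by 1.17 (SE 0.032, limma, adjusted p = 7.32e-07). FURIN, the target of SERPINB8, rose by 0.59 (SE 0.034, adjusted p = 1.2e-05), and the coagulation factor F12 by 0.40 (adjusted p = 3.07e-05). FURIN and F12 were each read by 1 probe set and have no value without x_at and s_at probe sets. PRSS3, a trypsinogen, was at 1.03 (adjusted p = 9.33e-07), uncertain because its sequence is nearly that of PRSS1.

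Some targets of the members were then read one by one, chosen after their values were seen. CTSG (cathepsin G), CMA1 (mast cell chymase) and F2 (thrombin) did not pass the threshold. They stood at 0.047, 0.024 and -0.095 (limma, adjusted p = 0.662, 0.838 and 0.252). PLAT, the tissue plasminogen activator bound by SERPINI1, fell by 0.17 (SE 0.033, adjusted p = 0.00431), and by 0.37 with the probe set of largest variance. PLAU, the urokinase activator, rose by 0.79 (SE 0.065, adjusted p = 5.99e-05), with -0.48, -0.43 and -0.29 against 0.30, 0.48 and 0.37. With the probe set of largest variance the difference of PLAU was 1.19. The 2 plasminogen activators therefore moved in opposite directions.

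Of the leukocyte granule proteases that SERPINA1, SERPINB1 and SERPINB9 inhibit, 3 are given here by value, none of them past the threshold. ELANE was at -0.11 (adjusted p = 0.317), PRTN3 at 0.15 (adjusted p = 0.309) and GZMB at 0.063 (adjusted p = 0.242). The lysosomal cysteine proteases CTSV and CTSL fell, by 0.49 (adjusted p = 0.000108) and 0.16 (adjusted p = 0.00475), while CTSH of the same group rose by 0.36 (adjusted p = 0.00024), or by 0.60 without the lowest level class or with the probe set of largest variance. CTSB, CTSK and CTSS lay between -0.043 and 0.056 and did not pass the threshold.

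Complexes of serpin and protease are cleared by receptors of the LDL receptor family. Of 15 receptors and cofactors listed, 14 were measured and 8 passed the threshold (57.1%, against 44.9% of all genes). Of these 4 were higher and 4 lower, and the median of the list was 0.025. VLDLR rose by 0.84 (SE 0.044, limma, adjusted p = 7.59e-06) and LRP8 by 0.81 (SE 0.033, adjusted p = 2.98e-06), both endocytic receptors of that family. PLAUR, which holds urokinase at the cell surface, fell by 0.38 (adjusted p = 6.11e-05), opposite to its ligand PLAU, and the heparan sulphate proteoglycan SDC4 fell by 0.21 (adjusted p = 0.000785), by 0.40 with the probe set of largest variance and by 0.14 with the median of its probe sets.

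SERPINH1 works with the collagen chains and the enzymes that modify and fold them. Of 40 such genes, 36 were measured and 21 passed the threshold (58.3%, against 44.9% of all genes). Of these 14 were higher and 7 lower, and the median of the list was 0.042. P3H4, a scaffold of a collagen lysine-hydroxylating complex, rose by 1.43 (SE 0.031, limma, adjusted p = 3.45e-07), and COLGALT1, which adds galactose to collagen hydroxylysine, by 0.81 (adjusted p = 2.27e-06). P3H1, a collagen prolyl 3-hydroxylase, fell by 0.63 (adjusted p = 1.05e-05), and TMEM38B, an ER cation channel needed for normal collagen synthesis, by 0.94 (SE 0.058, adjusted p = 1.46e-05).

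The regulator and a partner enzyme were picked after their values were seen. HSF1 fell by 0.30 (adjusted p = 0.000201) while SERPINH1 was higher. Like SERPINH1, HSF1 has no value without x_at and s_at probe sets. P4HB, the protein disulphide isomerase that is also a subunit of prolyl 4-hydroxylase, rose by 0.35 (adjusted p = 6.06e-05), and by 0.53 with the probe set of largest variance.

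Secreted serpins leave the ER by cargo receptors, and misfolded ones are handed to ER-associated degradation. Of 23 genes of this handling, 22 were measured and 15 passed the threshold (68.2%, against 44.9% of all genes). Of these 6 were higher and 9 lower, and the median of the list was -0.037. The lowest level class, where fewer probe sets are called, held 11.8% of the probe sets of this list, against 25.6% over all genes. HERPUD1, a membrane factor of ER-associated degradation, rose by 0.75 (SE 0.040, limma, adjusted p = 8.35e-06), while DERL1, a channel component of the same process, fell by 0.46 (adjusted p = 5.13e-05).

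UGGT2, a folding sensor of glycoproteins, fell by 0.38 (adjusted p = 0.000119), by 0.69 with the probe set of largest variance and by 0.24 without x_at and s_at probe sets. MCFD2 rose by 0.45 (adjusted p = 0.00011), and LMAN1, its partner in a cargo receptor that carries alpha-1-antitrypsin, was lower by 0.16 (adjusted p = 0.00721), by 0.089 and not past the threshold with the median of its probe sets, and by 0.50 with the probe set of largest variance.

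SERPINA1 and SERPINA3 belong to the acute phase response, driven in liver by interleukin-6, STAT3 and the C/EBP factors. Of 35 listed genes, 31 were measured and 13 passed the threshold (41.9%, against 44.9% of all genes). Of these 10 were higher and 3 lower, and the median of the list was 0.012. The lowest class held 50 of the 87 probe sets of this list (57.5%). LCN2, a siderophore-binding protein, rose by 1.60 (SE 0.036, limma, adjusted p = 3.69e-07), from -0.80, -0.76 and -0.81 to 0.76, 0.85 and 0.83. The factors CEBPB, CEBPD and FOXA1 rose by 0.74 (adjusted p = 1.52e-05), 0.69 (adjusted p = 8.47e-06) and 0.72 (adjusted p = 3.67e-06). Without x_at and s_at probe sets CEBPD was higher by 0.44, and CEBPB, read by 1 probe set, has no value.

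The receptor and signalling genes were named after their values were seen. IL6R fell by 0.27 (adjusted p = 0.000971), or by 0.17 without x_at and s_at probe sets, IL6ST was at -0.060 (adjusted p = 0.204) and STAT3 at 0.014 (adjusted p = 0.769). With the probe set of largest variance in place of the mean, IL6ST was lower by 0.27 and STAT3 higher by 0.14, both past the threshold.

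**Figure D3:**
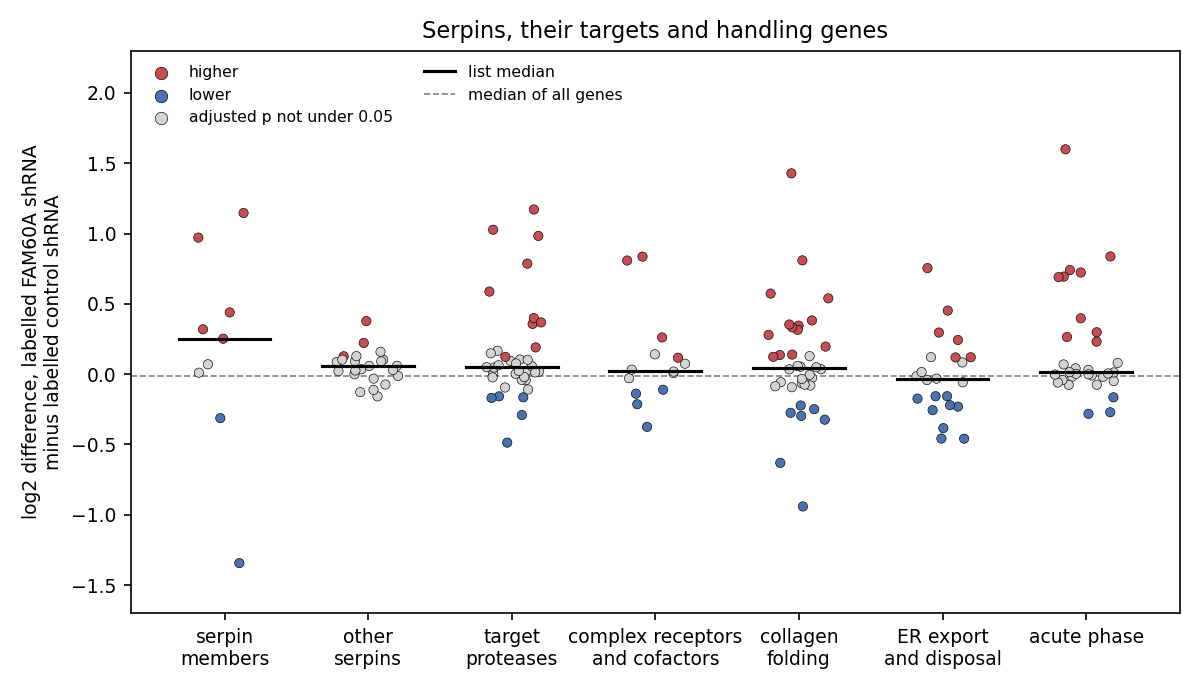
Log2 difference of each gene (vertical axis, arrays labelled FAM60A shRNA minus control shRNA) in the serpin set and 6 related lists, red where higher and blue where lower at an adjusted p under 0.05; black lines are list medians, the dashed line that of all genes. The related lists have medians from -0.037 to 0.058, with genes on both sides of 0, and the other serpins lie mostly near 0.

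The measured gene on each side of every serpin was read too. Of 17 such genes that are no member, 2 were higher, 3 were lower and 12 did not pass the threshold, with differences of those 12 between -0.25 and 0.13. Over all genes 44.9% passed it, 19.8% higher and 25% lower. Beside SERPINH1, GDPD5, a glycerophosphodiester phosphodiesterase, rose by 0.34 (SE 0.035, limma, adjusted p = 0.000164), close to the 0.32 of SERPINH1.

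Beside SERPINE2, which was higher, the mitochondrial ribosomal gene MRPL44 fell by 0.24 (adjusted p = 0.000545). HMSD, next to SERPINB8 on chromosome 18, fell by 0.20 (adjusted p = 0.0124). The neighbours of SERPINA1, SERPINA3 and SERPINB5 on both sides did not pass the threshold.

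**Figure D4:**
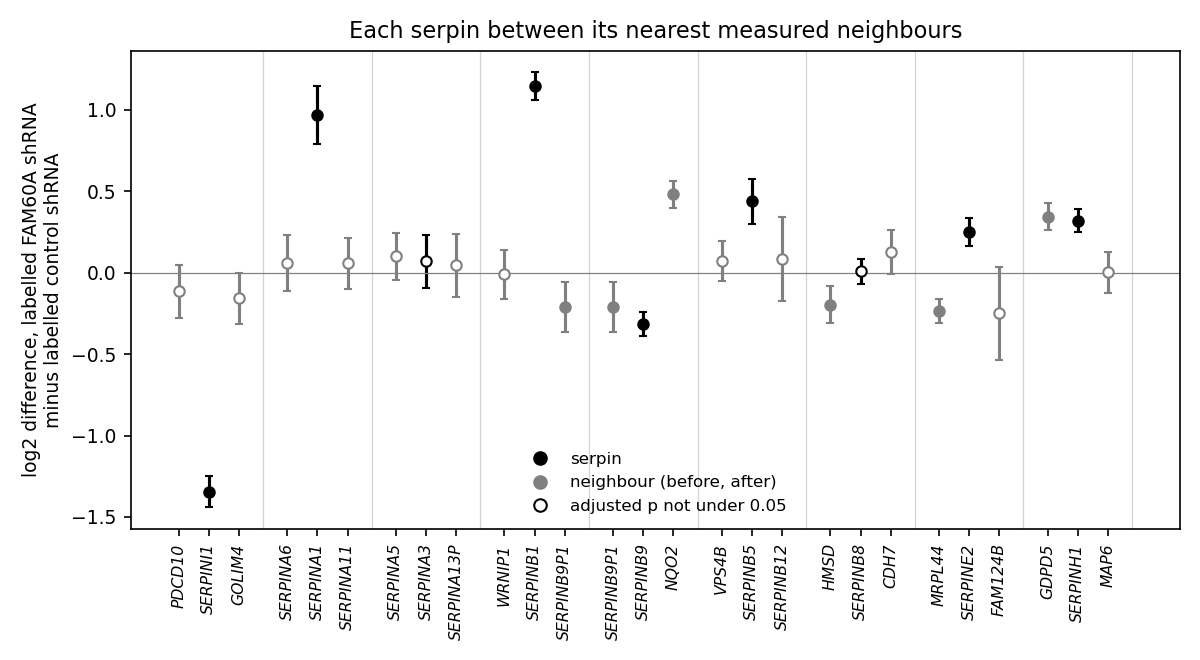
Log2 difference with its 95% confidence interval (vertical axis, arrays labelled FAM60A shRNA minus control shRNA) of each serpin (black) and of the nearest measured gene before and after it on the chromosome (grey), open where the adjusted p was not under 0.05. SERPINI1 at -1.34 stands between PDCD10 at -0.12 and GOLIM4 at -0.16, and GDPD5 and SERPINH1 lie at like heights.

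By root mean square difference over the 6 arrays, the genes nearest to SERPINI1 were ARL2BP at 0.045, KLHL28 at 0.048, CEP97 at 0.054, TTC32 at 0.065 and IER3IP1 at 0.067 log2 units. ARL2BP, which binds the small GTPase ARL2, had a difference of -1.27, KLHL28, a Kelch-domain protein, of -1.42, CEP97, a centriole protein, of -1.40, and TTC32 of -1.26. Without x_at and s_at probe sets IER3IP1 was at -0.77. These 5 lie on the same 6 arrays and were found by their likeness, so no test is given.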

How the data were processed

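The authors deposited 1 table of log2 values. The submitters' processing notes name RMA, which corrects background, normalizes by quantiles and summarises probes. Each probe set was centred on its median over the 6 arrays (largest absolute median 5e-07). Base 2 was assumed because RMA uses it. The program version is not given in the sources used here. Array medians lay from -0.0147 to 0.0101.

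The platform annotation gave the gene names: 44988 probe sets had 1 symbol and were used, 1832 had several, 2473 had none and 102 were controls. A gene was the mean of its probe sets. Groups came from the sample titles and were tested in limma 3.58.1 (R 4.3.3; functions lmFit and eBayes), with Benjamini-Hochberg adjustment over all 18132 genes (or all 44988 probe sets) and a threshold of 0.05. The script was tested on simulated data.

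Named were the members, other serpins past the threshold, up to 4 genes of smallest p per list, the nearest measured neighbours (with values where past the threshold, and for both sides of SERPINI1), SINHCAF and the 5 genes nearest to SERPINI1; others are marked as chosen after their values were seen. The members and lists were chosen with earlier results of these data known. Promoter sequences came from RefSeq (GRCh38.p14), where all 10 members matched. Alternatives changed the scaling, probe set choice, gene summary, variance prior, replicate block and arrays included.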

Additional observations from a re-analysis of the deposited data

How the results depend on the processing

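The members' count of 7 kept its value or reached 6 or 8 under the alternatives run, being 6 without x_at and s_at probe sets, where SERPINH1 has no value. Of 133 alternative values of the members' differences, 130 kept direction and side of the threshold, 1 newly passed it and 2 changed sign: the SERPINB8 log2 difference was -0.012 with the median of probe sets and from -0.011 (first array labelled FAM60A shRNA left out) to 0.021 over single arrays left out. The STAT3 log2 difference likewise ranged from -0.001 (array 3 labelled control shRNA left out) to 0.029. Member probe sets past the threshold were 10 without x_at and s_at probe sets (fewer probe sets tested) against 19. Other serpins past it were 1 without the lowest level class (fewer probe sets tested) against 3. Leaving out each array in turn put all genes past threshold at 7365 to 7700, 7 to 8 members, 17 to 22 member probe sets and 1 to 4 other serpins. Higher and lower genes were 3595 and 4541 as deposited, 3929 and 4183 after quantile normalization, and 4063 and 4049 after cyclic loess.

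Arrays with the same replicate number did not clearly deviate together (correlations 0.161, 0.059 and 0.078), so the numbers were not taken to pair samples. With the number as a replicate block, all genes past threshold came to 8170, members to 7 and other serpins to 2, and SERPINA12 lost its call (adjusted p = 0.0651, 0.0099 to 0.117 over its alternatives). The cause of these changes was not tested. Centred values leave signal over background unknown beyond the level class.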
